A study of Bos taurus with 12 samples.

Results

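The genes described here encode or regulate the sterol regulatory element binding proteins (SREBPs), or belong to cholesterol transport and its control. Their mRNA was followed in cattle (Bos taurus) precursor adipocytes. The genes were chosen by name, with earlier results of these data known. They are the rows of the count table for SREBF1, SREBF2, SCAP, INSIG1, INSIG2, STARD4, ABCA1, NR1H3 and MYLIP. Of these 9 names 8 were matched among 29240 genes, and all 8 passed the filter on low counts; STARD4, a carrier of sterol between membranes, was not matched and is not analysed here. Transfected cells were harvested for RNA at 48 h, and the 12 libraries form 4 groups of 3. The si cells received an interfering reagent whose target the labels do not name, and si_NC its negative control. The OE group received pcDNA3.1-HGFAC, an expression plasmid carrying the coding region of HGFAC, and OE_NC received pcDNA3.1-NC. HGFAC is the gene of the HGF activator, a protease found outside the cell. All 4 groups were transfected, no untransfected cells are among them, and the labels give neither the number of animals nor the origin of the cells.

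SREBPs are transcription factors made as precursors in the membrane of the endoplasmic reticulum. When sterol is scarce, SCAP escorts them to the Golgi, where proteases release the part that enters the nucleus and turns on genes of cholesterol and fatty acid synthesis. When sterol is plentiful, the INSIG proteins hold SCAP back, while oxysterols activate the liver X receptors (LXRs), which raise cholesterol export through ABCA1 and also induce MYLIP. INSIG1 and SREBF2 are themselves SREBP targets, so their mRNA is commonly read together with that of the synthesis enzymes. In adipose cells SREBF1 is known for lipogenic gene expression and ABCA1 for returning cholesterol to lipoproteins.

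Counts assigned to genes came to 28.9 M to 42.7 M per library. HGFAC stood at 190, 156 and 138 CPM (counts scaled to the library's size, with TMM factors) in OE and at 0.273 to 0.526 CPM in OE_NC, a 407-fold rise (log2 8.67 ± 0.19, edgeR adjusted p = 4.31e-13; exact two-sided permutation p = 0.1, the smallest that 3 against 3 libraries allow). In si it stood at 0.658 ± 0.165 CPM against 0.830 ± 0.099 CPM in si_NC (mean ± SD, n = 3; edgeR adjusted p = 0.512; exact two-sided permutation p = 0.3), so the si label is not checked by this gene. Of 12 stromal markers 8 averaged over 1 CPM, among them PDGFRA (275 CPM) and COL1A1 (3761), while DPP4, PI16, DLK1 and LY6E stood at 0.0689 to 0.390 CPM. Of 9 fat cell markers LPL (15.9 CPM) and FABP4 (7.10) were highest, and ADIPOQ, LEP, PCK1 and DGAT2 averaged at most 0.109 CPM. The muscle markers ACTA2 (3321 CPM), DES (569) and CNN1 (355) were abundant, and MYOD1 and MYOG averaged at most 0.0427 CPM. The 10 immune markers, of interest because macrophages carry much ABCA1 and NR1H3, summed to 8.51 to 11.2 CPM over all libraries. Of them 5 had enough counts to test, and PTPRC averaged 0.0285 CPM. EdgeR called 0 of the 5 in si against si_NC, in OE against OE_NC and between the controls, and 1, CSF1R, for the difference of the changes (log2 −1.51). Other markers called were THY1 (log2 0.66) and CSPG4 (0.50) in si, and DES (0.42), MYH11 (1.01) and ACTA1 (−0.68) in OE. Between the controls they were THY1 (1.17), ACTA1 (0.76) and LPL (0.37). For the difference of the changes they were THY1 (−0.77), CSPG4 (−0.68) and ACTA1 (−1.22). The part of these markers in the results below was not tested. In bulk RNA, fewer cells of a type and less RNA per cell cannot be told apart. The labels do not say that the 3 libraries of a group came from separate cultures, so p-values measure only the spread between these libraries.

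Compared per length, the 8 genes had group means of 0.452 to 5.92 RPKM, and their order differed between the 2 control groups. In si_NC, SREBF2 was highest at 5.92 ± 1.06 RPKM (reads scaled by exon length and library total; mean ± SD, n = 3). It was followed by INSIG2 at 4.84 ± 0.281, SREBF1 at 4.79 ± 0.579, INSIG1 at 4.48 ± 1.08 and NR1H3 at 4.14 ± 0.173 RPKM. SREBF2, at 5.13 to 7.12 RPKM, did not overlap INSIG2 (maximum 5.10) but did overlap SREBF1 (maximum 5.29) and INSIG1 (maximum 5.70). In the ranked order INSIG2, SREBF1 and INSIG1 each overlapped the next in range, while NR1H3 did not overlap SCAP. SCAP at 2.31 ± 0.149, ABCA1 at 1.75 ± 0.066 and MYLIP at 0.452 ± 0.114 RPKM were each separated from the next. In OE_NC, NR1H3 led at 5.09 ± 0.315 RPKM, above INSIG2 at 4.45 ± 0.256, and SREBF1 came next at 3.71 ± 0.331 RPKM. SREBF2 followed SREBF1 there at 3.0 ± 0.639 RPKM, its range overlapping those of its neighbours SREBF1 and SCAP (2.72 ± 0.149). ABCA1 at 2.47 ± 0.028 RPKM lay above INSIG1 at 1.12 ± 0.112 RPKM, the reverse of their order in si_NC. MYLIP was last in every group.

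**Figure D1:**
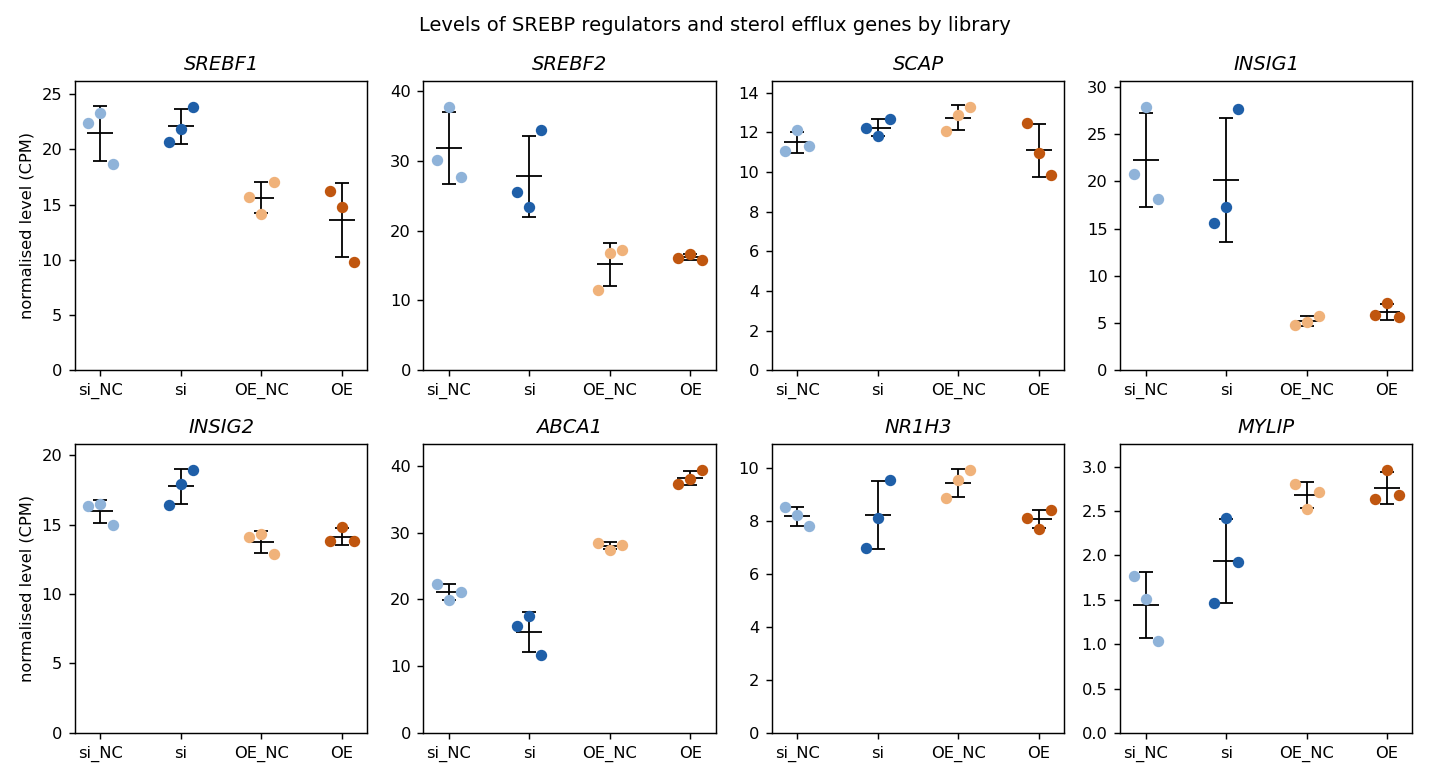
Normalised level (CPM, linear axis from 0) of each of the 8 genes in the 12 libraries, with the mean and SD of each group of 3. INSIG1 and SREBF2 sit lower in both plasmid groups than in both interference groups, while ABCA1 is highest in OE and lowest in si.

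The largest contrast among these genes was between the groups of the plasmid experiment and those of the interference experiment, and it was already there in the controls. SREBF2 encodes SREBP2, the factor that governs the cholesterol synthesis genes, and lies on the plus strand of chromosome 5 (112832407 to 112890177, as the count table places it, on a build that was not named). It stood at 30.1, 37.7 and 27.7 CPM in si_NC and at 11.5, 16.8 and 17.2 CPM in OE_NC, with no overlap. Its level in OE_NC was lower by a log2 difference of −1.07 ± 0.16 (± SE; 95% interval −1.42 to −0.72; edgeR adjusted p = 0.000788). SREBF1, whose products SREBP1a and SREBP1c drive fatty acid synthesis, lies on the plus strand of chromosome 19 (34632988 to 34649201). It stood at 22.4, 23.3 and 18.7 CPM in si_NC and at 15.7, 14.2 and 17.0 CPM in OE_NC. These groups did not overlap either, and the difference was smaller (log2 −0.46 ± 0.15, edgeR adjusted p = 0.0439). The SREBF1 call was lost without si_NC replicate 1 (log2 −0.43), si_NC replicate 2 (−0.40), or any single OE_NC library (−0.46, −0.39 and −0.52), and with library totals as scaling (−0.37, edgeR adjusted p = 0.0965). The same held for a filter of 5 CPM (−0.40), removal of the length trend (−0.37), both limma settings (−0.29 and −0.36) and replicate number as a block (−0.45, edgeR adjusted p = 0.0528).

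INSIG1 differed most. It encodes the inducible of the 2 proteins that retain SCAP in the endoplasmic reticulum, and lies on the plus strand of chromosome 4 (117125759 to 117138562). INSIG1 stood at 20.8, 27.8 and 18.1 CPM in si_NC against 4.80, 5.08 and 5.78 CPM in OE_NC. Every OE_NC library lay below every si_NC library, and the log2 difference was −2.09 ± 0.21 (edgeR adjusted p = 3.47e-05), or 4.26-fold with a 95% interval from 3.13-fold to 5.81-fold. Its paralog INSIG2, which is not under the same sterol control, lies on the plus strand of chromosome 2 (69756795 to 69779356). INSIG2 stood at 16.4, 16.5 and 15 CPM in si_NC and at 14.1, 14.3 and 12.9 CPM in OE_NC; the groups did not overlap, but the difference did not pass (log2 −0.21 ± 0.09, 95% interval −0.41 to −0.02, edgeR adjusted p = 0.111). SCAP, the escort of the SREBPs, on the plus strand of chromosome 22 (52163449 to 52263267), gave 11.1, 12.1 and 11.3 CPM in si_NC and 12.1, 12.9 and 13.3 CPM in OE_NC. Those ranges overlap slightly, and the log2 difference was 0.15 ± 0.10 (95% interval −0.07 to 0.36, edgeR adjusted p = 0.323).

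The paralog ratios, described here without a test, were as follows. Per length, INSIG1 was 0.841, 1.12 and 0.800 times INSIG2 in the si_NC libraries and 0.627, 0.639 and 0.968 times in si. In the plasmid libraries it was 0.226, 0.234 and 0.297 times in OE_NC and 0.280, 0.319 and 0.269 times in OE. Every plasmid library therefore held less INSIG1 per INSIG2 than any interference library. SREBF2 was 1.12 to 1.35 times SREBF1 in si_NC and 0.610 to 0.985 times in OE_NC, without overlap. In si (0.893 to 1.2) and OE (0.826 to 1.34) the same ratio overlapped.

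**Figure D2:**
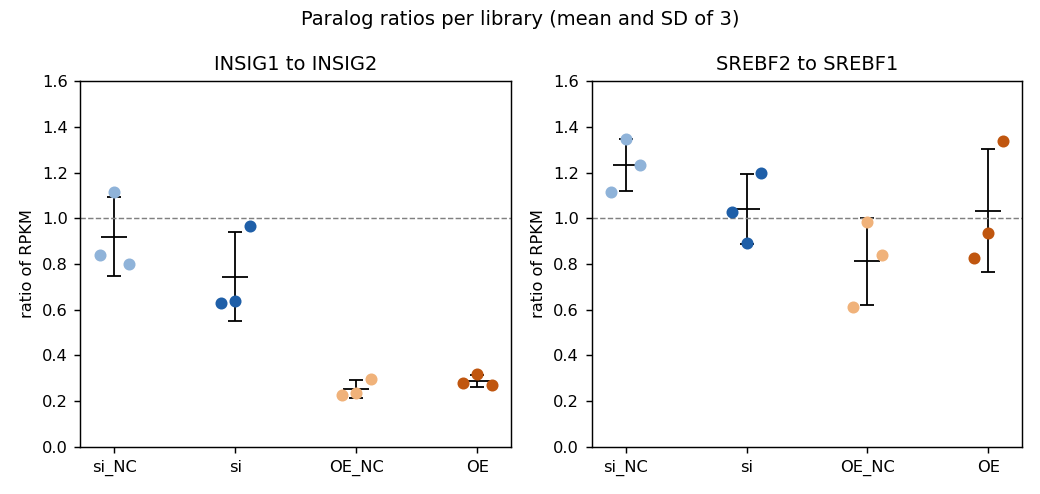
Ratio of RPKM between the 2 INSIG genes (left) and the 2 SREBF genes (right) in each library, with the mean and SD of 3. The INSIG1 to INSIG2 ratio is at most 0.319 in the plasmid libraries and at least 0.627 in the interference libraries.

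The 3 genes on the side of LXR and cholesterol export were positive in this comparison, and 2 of them passed the test. ABCA1, the transporter that loads cellular cholesterol onto apolipoprotein A-I, lies on the minus strand of chromosome 8 (94600618 to 94737880). It stood at 22.3, 20.0 and 21.2 CPM in si_NC and at 28.4, 27.5 and 28.2 CPM in OE_NC. OE_NC was higher in every library (log2 0.41 ± 0.11, 95% interval 0.16 to 0.65, edgeR adjusted p = 0.0221). That call was lost without si_NC replicate 2 (log2 0.37), si_NC replicate 3 (0.40) or OE_NC replicate 2 (0.42). MYLIP, also called IDOL, encodes a ubiquitin ligase induced by the LXRs, and lies on the minus strand of chromosome 23 (40992081 to 41012855). It was the least abundant, with 31 to 106 reads per library, and stood at 1.77, 1.51 and 1.03 CPM in si_NC and 2.81, 2.53 and 2.71 CPM in OE_NC. This was a 1.86-fold higher level (log2 0.90 ± 0.22, edgeR adjusted p = 0.011), again with no overlap. NR1H3, the liver X receptor alpha gene on the plus strand of chromosome 15 (77125648 to 77138644), gave 8.54, 8.23 and 7.81 CPM in si_NC and 8.89, 9.55 and 9.94 CPM in OE_NC. Although these did not overlap, the difference did not pass (log2 0.21 ± 0.12, 95% interval −0.04 to 0.46, edgeR adjusted p = 0.228).

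In all, 5 of the 8 genes differed between the controls, 3 lower and 2 higher in OE_NC, against 19.7 percent of the 16300 genes tested (9.49 percent higher and 10.2 percent lower). The groups did not overlap for 7 of the 8, against 35.8 percent of genes (18.4 percent higher and 17.4 percent lower). The 8 genes were chosen with earlier results of these data known, so these counts are a description. The labels do not say whether the 2 experiments were run together, and the reagent, the plasmid and the occasion cannot be told apart in this comparison. Between the control groups, scaling by library totals moved the split of all called genes from 1547 higher and 1668 lower to 2298 higher and 944 lower, with the median over all genes going from 0.02 to 0.11. For the 8 genes each sign was kept, and INSIG1 (−2.00), SREBF2 (−0.98), ABCA1 (0.50) and MYLIP (0.99) stayed called.

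Genes of the wider pathway were taken from lists chosen with earlier results of these data known, so their direction is a description. Of 23 SREBP2 targets of cholesterol synthesis and uptake tested, 18 were lower in OE_NC than in si_NC and 1, the isoprenoid enzyme GGPS1, was higher (log2 0.39). The GGPS1 call was lost in all 6 refits without 1 library (log2 0.30 to 0.43) and with the replicate block. The list median was −1.01 beside 0.02 for all genes, and 10.2 percent of all genes were called lower. HMGCS1, which makes HMG-CoA, stood at 42.6 ± 9.41 against 229 ± 65.6 CPM (log2 −2.43 ± 0.27, edgeR adjusted p = 9.02e-05). IDI1, the isopentenyl diphosphate isomerase, stood at 20.6 ± 1.52 against 70.8 ± 10.8 CPM (log2 −1.78). SQLE, the squalene epoxidase, stood at 19.1 ± 2.81 against 65.6 ± 11.1 CPM (log2 −1.78). The difference in INSIG1 was thus within the range of the enzymes, −2.43 to 0.39, and near its lower end.

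Among 15 SREBP1 targets of fatty acid synthesis, 10 were lower in OE_NC and 0 higher, with a median of −0.67. The phosphatidate phosphatase LPIN1 (log2 −2.00), the acetyl-CoA synthetase ACSS2 (−1.89) and the desaturase SCD (−1.87) differed most among those called. Of 20 genes of SREBP processing and degradation, 2 were lower, the site-1 protease MBTPS1 (101 ± 8.10 to 75.7 ± 4.11 CPM; log2 −0.42) and the vesicle coat gene SEC24B (log2 −0.24), and the list median was −0.01. MBTPS1 stayed called in all 18 alternatives, and SEC24B in 5 of 18 (log2 −0.27 to −0.13). Only 11 of 16 LXR partners and targets passed the filter, and 3 were higher in OE_NC: the second LXR gene NR1H2 (69.7 ± 1.99 to 93.7 ± 5.50 CPM; log2 0.43), the receptor partner RXRB (log2 0.39) and the lipase LPL (log2 0.37). The other sterol exporters on that list, ABCG1, ABCG5 and ABCG8, averaged at most 0.11 CPM in any group and were not tested. Of 27 other cholesterol transport genes, 1 was higher and 5 lower, among them the sterol transfer protein GRAMD1C (log2 −0.79) and the lipoprotein receptor LRP8 (−0.76). These counts of 2 of 20, 3 of 11 and 6 of 27 stand beside the 19.7 percent of all genes called.

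**Figure D3:**
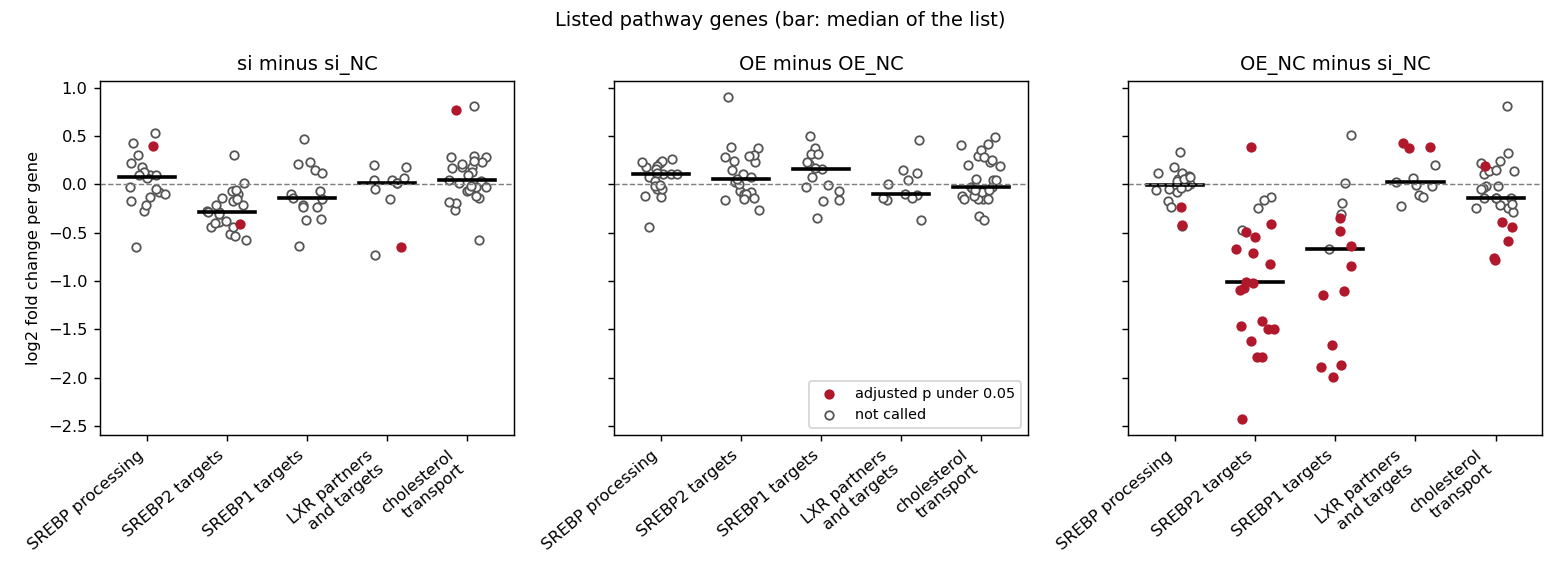
Log2 fold change of each tested gene of the 5 pathway lists in 3 comparisons; filled points passed edgeR at an adjusted p under 0.05 and bars mark list medians. The SREBP2 and SREBP1 target lists lie below 0 in OE_NC minus si_NC (medians −1.01 and −0.67), and within the 2 experiments few genes are filled.

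Within the interference experiment ABCA1 fell and the SREBP regulators did not pass the test. ABCA1 went from 22.3, 20.0 and 21.2 CPM in si_NC to 16.0, 17.5 and 11.7 CPM in si. All 3 si libraries lay below all 3 controls (log2 −0.48 ± 0.12, edgeR adjusted p = 0.0407), a level 1.40-fold lower with a 95% interval from 1.18-fold to 1.66-fold. This was 1 called gene of 8, against 2.54 percent of all genes (1.62 percent lower), and its groups alone did not overlap, as for 20.8 percent of all genes. Over all genes 150 were called higher and 264 lower, or 298 and 106 with library totals. The call was lost without si replicate 1 (log2 −0.54), si_NC replicate 1 (−0.45) or si_NC replicate 3 (−0.49), with library totals (−0.40, edgeR adjusted p = 0.0802) and in a fit of these 6 libraries alone (−0.48, edgeR adjusted p = 0.18). Without si replicate 3, the lowest library, it was −0.34 and still called.

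For the other genes the si and si_NC libraries overlapped. INSIG1 in si spanned 15.6, 17.3 and 27.7 CPM (log2 −0.14 ± 0.19, 95% interval −0.55 to 0.27). SREBF2 spanned 25.6, 23.4 and 34.4 CPM (log2 −0.20 ± 0.16, interval −0.54 to 0.14), and SREBF1 20.7, 21.8 and 23.8 CPM (log2 0.04, interval −0.27 to 0.36). In both INSIG1 and SREBF2, replicate 3 was the highest si library. SCAP (12.2, 11.8 and 12.7 CPM; log2 0.09, interval −0.13 to 0.31) and INSIG2 (16.4, 17.9 and 18.9 CPM; log2 0.15, interval −0.04 to 0.35) had narrow intervals. NR1H3 (6.99, 8.13 and 9.54 CPM) had a log2 change of 0.005 with an interval of −0.25 to 0.26. MYLIP (1.47, 2.42 and 1.93 CPM) had 0.44 with an interval of −0.04 to 0.91. The edgeR adjusted p-values of these 7 genes ran from 0.309 for MYLIP to 0.988 for NR1H3.

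Of the 23 SREBP2 targets, 21 had a negative log2 change in si, with a median of −0.28 beside 0.02 for all genes. Over all 16300 genes tested, 8799 had a positive change. The si and si_NC groups did not overlap for 2 of 23 SREBP2 and 0 of 15 SREBP1 targets, beside 20.8 percent of all genes. Non-overlap was seen for 7 of 20 processing, 3 of 11 LXR and 5 of 27 transport genes. Of the 23 SREBP2 targets only SC5D, the sterol C5-desaturase, was called (72.2 ± 5.93 to 54.5 ± 5.07 CPM; log2 −0.41 ± 0.10, edgeR adjusted p = 0.0409). Without si replicate 3 the number called was 12, and it was 13 without si replicate 3 and si_NC replicate 2 together. It was 9 with no filter on low counts. Over all genes these 3 settings called 685 of 16748, 1119 of 16712 and 1208 of 29240, against 414 of 16300 in the main fit. DESeq2 called 4 of the list and 1125 of 13139 genes. The list count was 0 with library totals and in a fit of these 6 libraries alone, where 404 and 8 genes were called. It was also 0 without si replicate 1, si replicate 2, si_NC replicate 1 or si_NC replicate 3. Those refits called 73, 69, 56 and 135 genes. RXRA, one of the receptor partners of the LXRs, fell (6.28 ± 1.42 in si against 9.85 ± 0.730 CPM, log2 −0.65, edgeR adjusted p = 0.0398). It was the only one of 11 LXR partners and targets called. The partner RXRB stood at 10.2 ± 0.413 CPM in si against 9.87 ± 0.200 CPM in si_NC. TMEM33, which is listed with SREBP processing, rose (14.6 to 19.2 CPM, log2 0.39), as did NCEH1, a cholesteryl ester hydrolase (1.93 to 3.29 CPM, log2 0.77). The RXRA call was lost without si replicate 1 or 2 or si_NC replicate 1 or 3 (log2 −0.82 to −0.51 over the 6 refits without 1 library), with library totals, in the fit of these 6 libraries alone and with limma. TMEM33 was called in 2 of these 6 refits (0.35 to 0.44) and NCEH1 in 1, that without si_NC replicate 2 (0.70 to 0.81 over the 6). Of the 15 SREBP1 targets edgeR called 0, with 3 at an unadjusted p under 0.05 and 1 called by DESeq2. It called 3, all lower, without si replicate 3 (median −0.33), 3 without si replicate 3 and si_NC replicate 2 together, and 3 of 16 with no filter on low counts. The counts over all genes in these 3 settings are those given above. ELOVL5 and ACLY, the highest of them in mean RPKM, had log2 changes of −0.10 and −0.23.

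With HGFAC overexpression ABCA1 rose. It went from 28.4, 27.5 and 28.2 CPM in OE_NC to 37.3, 38.0 and 39.4 CPM in OE, the highest levels of the study (log2 0.45 ± 0.11, edgeR adjusted p = 0.0401), a level 1.36-fold higher with a 95% interval from 1.15-fold to 1.61-fold. The 2 groups were far apart relative to their SDs of 0.513 and 1.08 CPM. ABCA1 was the only one of 8 genes called, against 4.47 percent of all genes (2.22 percent higher and 2.25 percent lower; 362 and 366 genes, or 159 and 653 with library totals). This call was close to the threshold: it was lost without any single OE or OE_NC library (log2 0.42 to 0.45, edgeR adjusted p = 0.0732 to 0.141), with library totals (0.39, edgeR adjusted p = 0.0599) and with each library's trend on exon length removed (0.30, edgeR adjusted p = 0.199). ABCA1 has the longest exon sum of the 8 genes, 11663 bases.

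NR1H3, which acts upstream of ABCA1, stood at 8.12, 7.72 and 8.41 CPM in OE, below all 3 OE_NC libraries (log2 −0.23 ± 0.12, 95% interval −0.48 to 0.02, edgeR adjusted p = 0.26). Non-overlap was seen for these 2 of the 8 genes, against 33.3 percent of all genes (17.4 percent higher and 16.0 percent lower). SCAP gave 12.5, 11 and 9.83 CPM in OE (log2 −0.20, interval −0.41 to 0.02), and SREBF1 gave 16.2, 14.8 and 9.83 CPM (log2 −0.20, interval −0.52 to 0.13); replicate 3 was lowest in both. SREBF2 gave 16.1, 16.6 and 15.8 CPM (log2 0.09, interval −0.26 to 0.45) and INSIG1 5.85, 7.15 and 5.61 CPM (log2 0.25, interval −0.21 to 0.71). INSIG2 stood at 13.8, 14.8 and 13.8 CPM (log2 0.04, interval −0.15 to 0.23) and MYLIP at 2.63, 2.96 and 2.68 CPM (log2 0.04, interval −0.39 to 0.47). All 6 of these overlapped OE_NC.

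With overexpression edgeR called 0 of the 96 list genes tested in the main fit, beside 4.47 percent of all genes. Groups did not overlap for 7 of 23 SREBP2 targets, 4 of 15 SREBP1 targets and 8 of 20 processing genes. The same held for 4 of 11 LXR genes and 10 of 27 transport genes, beside 33.3 percent of all genes. EdgeR called 0 of 23 SREBP2 targets (2 at an unadjusted p under 0.05, 0 by DESeq2, 0 by limma; median 0.06) and 0 of 15 SREBP1 targets (1, 0 and 0; median 0.16). It called 0 of 20 processing genes (3, 1 and 0; median 0.10), 0 of 11 LXR genes (1, 1 and 1; median −0.10) and 0 of 27 transport genes (7, 2 and 1; median −0.03). All genes had a median of −0.005. With no filter on low counts edgeR called 2 of 23 SREBP2, 1 of 16 SREBP1, 0 of 20 processing, 0 of 16 LXR and 4 of 28 transport genes. Over all genes that setting called 1679 of 29240. A fit of the OE and OE_NC libraries alone called, in the same order, 0 of 22, 0 of 15, 1 of 20, 1 of 11 and 3 of 27. Over all genes that fit called 1621 of 15738. IDI1 stood at 20.9 ± 1.28 against 20.6 ± 1.52 CPM. APOE, the abundant apolipoprotein among LXR targets, stood at 109 ± 5.20 against 105 ± 3.12 CPM.

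**Figure D4:**
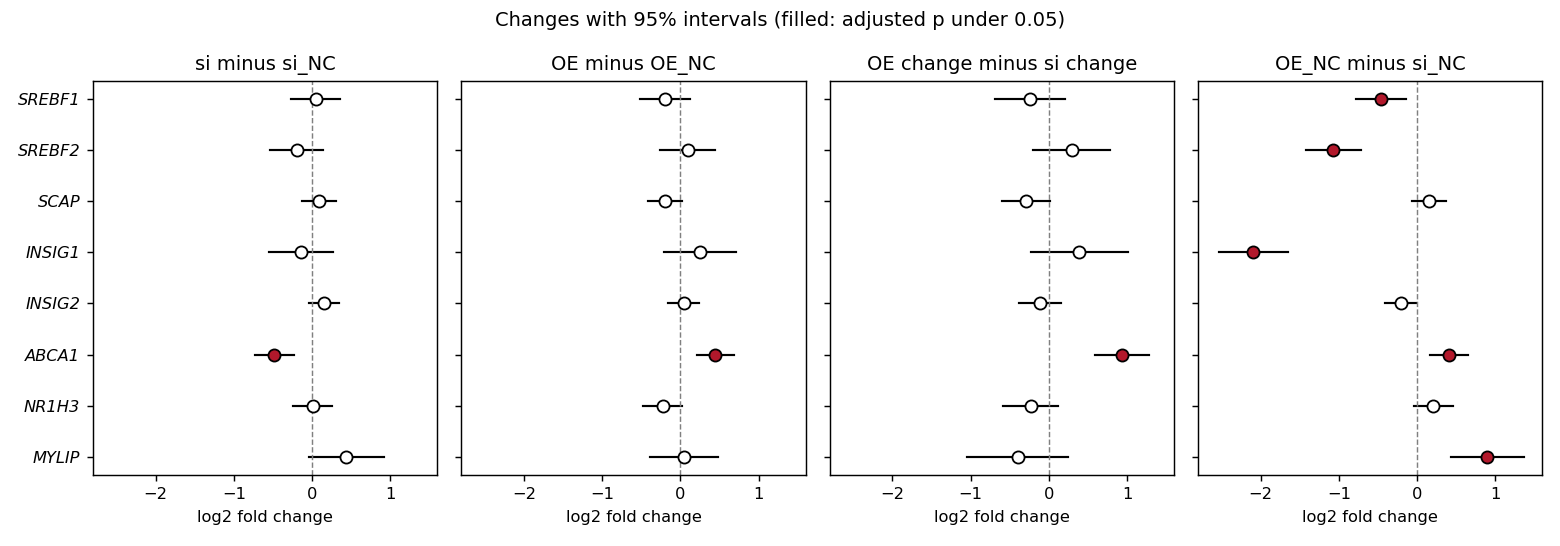
Log2 fold change with its 95% interval for each gene in 4 comparisons; filled points passed edgeR at an adjusted p under 0.05. ABCA1 is filled in all 4, at −0.48 in si, 0.45 in OE, 0.93 for the difference of these changes and 0.41 between the controls.

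The change of ABCA1 differed between the experiments when that difference itself was tested. Its change in OE exceeded its change in si by a log2 value of 0.93 ± 0.16 (95% interval 0.59 to 1.28, edgeR adjusted p = 0.00468), and it was the 1 gene of 8 to pass, against 8.41 percent of all genes (4.29 percent higher and 4.12 percent lower; 700 and 671 genes, or 265 and 1269 with library totals). All 23 alternatives run gave the same call, with values from 0.54 to 1.05. Across the 4 groups ABCA1 was ordered si, si_NC, OE_NC, OE from low to high, and no neighbouring groups overlapped. Non-overlap at these 3 steps was seen for 20.8, 35.8 and 33.3 percent of all genes. The middle step lies between the experiments, where reagent, plasmid and occasion cannot be told apart. HGFAC did not follow this order, with means of 0.658, 0.830, 0.393 and 161 CPM. For the difference of the changes, the other 7 genes had values of −0.40 (MYLIP) to 0.39 (INSIG1), with edgeR adjusted p-values of 0.23 to 0.638. The widest of their intervals were those of MYLIP (−1.04 to 0.25) and INSIG1 (−0.23 to 1.01), and the narrowest that of INSIG2 (−0.39 to 0.16).

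Within si, and less so within si_NC, INSIG1, SREBF2 and most SREBP2 targets deviated together, given here as a description. Relative to the mean log2 level of its own group, si replicate 3 had INSIG1 at 0.50, SREBF2 at 0.33 and ABCA1 at −0.34. There 21 of the 23 SREBP2 targets lay above the group mean, with a median deviation of 0.29. In si_NC, replicate 2 had INSIG1 at 0.35, SREBF2 at 0.25 and ABCA1 at −0.08, with 20 of 23 targets above the mean (median 0.16). The other si libraries had INSIG1 at −0.33 and −0.18 and ABCA1 at 0.11 and 0.24. Thus in si, and less so in si_NC, the library with the most INSIG1 and SREBF2 had the least ABCA1. The LXR gene NR1H3 did not go with ABCA1 there: it stood at 0.23 in si replicate 3 and 0.007 in si_NC replicate 2. MYLIP stood at 0.02 and 0.11. Across all genes the deviations of these 2 libraries had r = 0.33, so they were not particular to these genes. The number of all genes above the group mean is not given here. In OE_NC, replicate 1 was low in SREBF2 (−0.37) with 6 of 23 targets above the mean, while ABCA1 moved by no more than 0.03 in any of the 3 libraries. OE_NC replicate 3 had INSIG1 at 0.15, SREBF2 at 0.20 and 18 of 23 targets above the mean, with ABCA1 at 0.009. OE replicate 2 had the most INSIG1 of its group (0.21) and 17 of 23 targets above the mean. Its ABCA1 stood at −0.008, and the lowest ABCA1 in OE was in replicate 1 (−0.036). OE replicate 3 stood apart in SREBF1 (−0.44) but not in SREBF2 (−0.03).

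**Figure D5:**
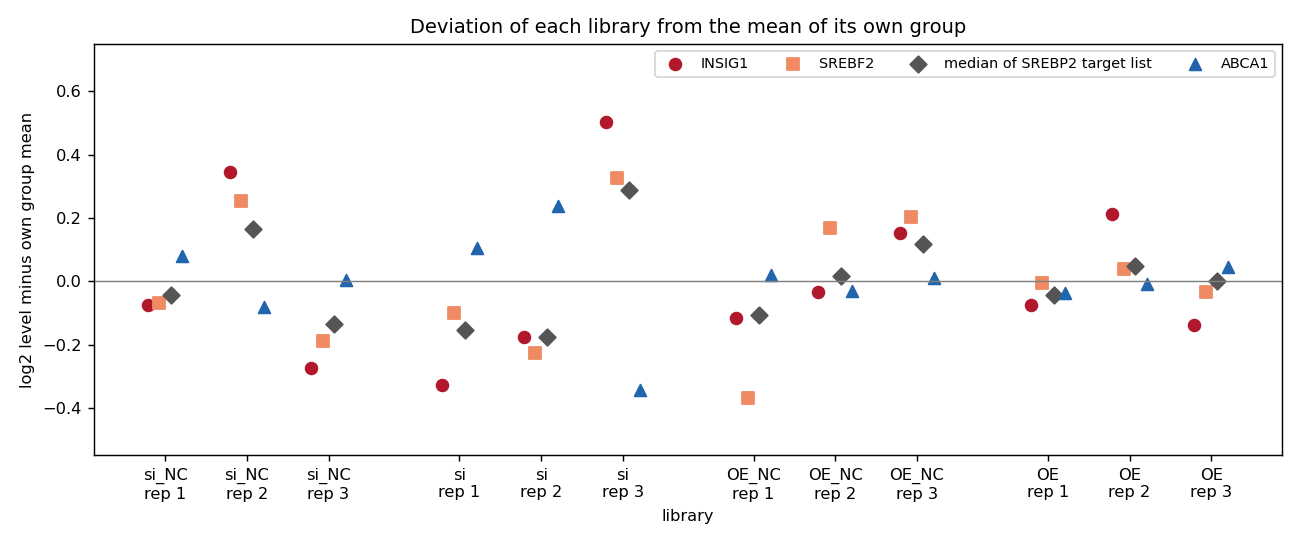
Deviation of each library from the mean log2 level of its own group for INSIG1, SREBF2, ABCA1 and the median of 23 SREBP2 targets. In si replicate 3 and si_NC replicate 2, INSIG1 is up at 0.50 and 0.35 and ABCA1 is down at −0.34 and −0.08.

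The genes most like each of the 7 with a mean of at least 5 CPM were read from log2 CPM over the 12 libraries, as a description. The 12 libraries share their groups, and the difference between the experiments weighs on every such value. SREBF2 was most like SCD (Pearson r = 0.99, Spearman rho = 0.91) and FASN, the fatty acid synthase (r = 0.99, rho = 0.92). Within the 6 interference and the 6 plasmid libraries SREBF2 and SCD had r of 0.98 and 0.91. INSIG1 was most like DCBLD1 (r = 0.99, rho = 0.98; 0.85 and 0.77 within the experiments) and CBFB (r = 0.98, rho = 0.85; 0.95 and 0.093). ABCA1 was most like SNW1 (r = 0.99, rho = 0.97; 0.98 and 0.92) and HBS1L (r = 0.98, rho = 0.94; 0.95 and 0.97). SREBF1 was most like CROCC (r = 0.96, rho = 0.97; 0.94 and 0.86) and SRSF4 (r = 0.95, rho = 0.85; 0.13 and 0.95). INSIG2 was nearest to TMEM63B (r = 0.94) and SLC25A25 (r = 0.93), SCAP to CST3 (r = 0.89) and TRIOBP (r = 0.84), and NR1H3 to DUSP11 (r = 0.83) and TIMP3 (r = 0.81). Of these 7 genes, SREBF2 alone had listed SREBP targets as its 2 nearest genes.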

How the data were processed

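RNA of 12 libraries was measured as stranded polyA sequencing, per the labels' protocols. The authors deposited raw counts per gene and RPKM; the submitters' processing notes name fastp 0.23.0, featureCounts and Subread 1.5.1. For aligner, genome build and counting strand no name was given in the sources used here. Recomputing RPKM from counts, exon lengths and column sums gave the deposited values within 6.6e-14 of each. Chromosome numbers were derived from the sequence names in the count table, which also gave starts and ends. A RefSeq gene table matched by symbol gave the same chromosome numbers. No member shared exon bases with another gene of the table. Entries that name no gene (2; 0.0868 to 0.116 percent of counts) were left out, and 0 columns were left unmapped. Even numbers made up 66.2 to 69.3 percent of the counts above 0, so halving the counts was tried.

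Groups came from sample titles, and the sample titled s_NC2 was read as si_NC replicate 2. Differences were tested with edgeR 4.0.16 (R 4.3.3): TMM, filterByExpr (minimum count 10, total 15; 16300 genes), a quasi-likelihood F test in 1 fit of 12 libraries with a mean per group, 8 residual degrees of freedom, Benjamini-Hochberg adjustment over all genes tested and a threshold of 0.05. SEs are the log2 change over the root of F. The contrasts compared si with si_NC, OE with OE_NC, these changes with each other, and OE_NC with si_NC; the last shares its libraries with the first 2. The procedure was tested on simulated data. The members and the 5 lists were chosen with earlier results of these data known. Of 105 listed symbols 103 were matched, SPRING1 by a synonym. Up to 3 called members per list were named by size of change, or else the 2 most abundant (some that the rule names are not reported here), with further genes named after their values were seen (GGPS1, ABCG1, ABCG5, ABCG8). The 2 most similar genes were those with the highest Pearson r. Alternatives were other scaling, DESeq2 1.42.0, limma 3.58.1 on log2 RPKM (1 or 0.1 added), other filters, only the groups compared, a replicate block, a length trend (spline, 4 degrees of freedom), and leaving out libraries, singly or si replicate 3 with si_NC replicate 2.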

Additional observations from a re-analysis of the deposited data

Results flagged for a closer look

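The change of ABCA1 with HGFAC overexpression exceeded its change with si by 0.93 on the log2 scale, which passed the test of the difference between the experiments (edgeR adjusted p = 0.00468). In every si library ABCA1 lay below every si_NC library, and in every OE library above every OE_NC library. Such separation, in either direction, was seen for 20.8 percent of all genes in si and 33.3 percent in OE. The ABCA1 call inside each experiment was fragile. When single libraries were dropped, 3 of 6 refits kept the si call and 0 of 6 kept the OE call. All 12 such refits kept the call for the difference. No other of the 8 genes passed the test of the difference, which called 8.41 percent of all genes.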

How the results depend on the processing

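Of the 8 genes, the number called in si was 0 with library totals, with only the groups compared and with limma on log2 RPKM with 1 or 0.1 added, and 0 to 1 when single libraries were left out. In OE it was 0 with library totals, with the length trend removed and with either limma setting, and 0 in all 6 refits without 1 library, where fewer samples were fitted. Between the controls it was 3 with a filter of 5 CPM in 3 libraries, which MYLIP did not pass, and 3 to 4 without single libraries. For the difference of the changes it was 1 in all 23 alternatives. Library totals moved the median of all genes from 0.02 to 0.10 in si, −0.005 to −0.06 in OE and −0.02 to −0.16 for the difference. With the replicate block the counts were 1 in si, 1 in OE, 1 for the difference and 4 between the controls. Replicate numbers share no stated origin: same-numbered libraries had correlated deviations of −0.26 to 0.092 in the interference experiment and −0.015 to 0.045 in the plasmid experiment, and the highest value was 0.33, for si replicate 3 with si_NC replicate 2. Normalising per length with TMM left all 8 genes in the same rank in each group. No gene changed sign where a call was made. MYLIP rests on 31 to 106 reads per library and had the widest 95% interval of the 8 genes in si and between the controls; the cause was not tested.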

Other observations

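Of the 96 list genes tested, 9 changed differently in the 2 experiments (9.38 percent, beside 8.41 percent of all genes). The change in OE exceeded that in si for SC5D (log2 0.70 ± 0.14, edgeR adjusted p = 0.00902) and CYP51A1 (0.95 ± 0.26, edgeR adjusted p = 0.037), both enzymes of late cholesterol synthesis. The same held for GRAMD1C (1.07 ± 0.24, edgeR adjusted p = 0.0166), FBXW7, which encodes the ubiquitin ligase subunit that binds nuclear SREBPs (0.52 ± 0.11, edgeR adjusted p = 0.0126), and MBTPS1 (0.47 ± 0.13, edgeR adjusted p = 0.0431). OSBPL9, a lipid transfer protein gene named after its values were seen, had 0.32 ± 0.08 (edgeR adjusted p = 0.0317). GRAMD1C had means of 6.99 CPM in si_NC, 4.68 in si, 4.04 in OE_NC and 5.67 in OE. The fifth list, SREBP1 targets, had 0 calls (4 at an unadjusted p under 0.05, 1 by DESeq2, 1 by limma). The difference was negative for TSPO, the translocator protein of the outer mitochondrial membrane (−0.61 ± 0.18, edgeR adjusted p = 0.0468), and the membrane-binding protein ANXA2 (−0.34 ± 0.09, edgeR adjusted p = 0.0334). It was also negative for LPCAT3, an LXR target that remodels phospholipids (−0.56 ± 0.14, edgeR adjusted p = 0.0273), with means of 13.3 CPM in si_NC, 15.2 in si, 13.3 in OE_NC and 10.3 in OE. Among the 11 LXR partners and targets tested LPCAT3 was the only one called for this difference, and its sign was opposite to that of ABCA1. The LPCAT3 call was lost without si replicate 1, si_NC replicate 1, OE replicate 1, OE replicate 3 or OE_NC replicate 2 (log2 −0.63 to −0.51 over the 12 refits without 1 library). In those 12 refits SC5D and FBXW7 were called 12 times each, GRAMD1C 10 times, CYP51A1 4, ANXA2 4, MBTPS1 3 and TSPO 2. Without si replicate 1 edgeR called 0 of the 27 transport genes, with 10 at an unadjusted p under 0.05.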
